A study of Mus musculus with 125 samples.

Results

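The chromatin of mouse endothelial nuclei from the embryonic heart was compared with that of endothelial nuclei from the embryonic trunk, using the 4 heart and 4 trunk endothelial peak lists of age E12. These are 8 of the 66 ATAC-seq lists in the series, which also holds 59 samples of other assays. ATAC-seq cuts DNA with a transposase where chromatin is open, so a peak marks an open stretch of the genome. The libraries were chosen by their titles, and every list was reduced to the same number of peaks, the 38942 with the highest -log10 q, which is the number in the shortest list (autosomes and X only).

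The series profiled endothelial nuclei and input nuclei from several organs at embryonic, postnatal and adult ages. For the embryos, dams received tamoxifen (0.015 mg/kg) at E10.5 and embryos were taken at E12.5, which the age label writes as E12. GFP was seen in the vessels of every tissue kept. The labels do not name the driver or reporter line, and the protocol text used here ends before the step that separates labelled from input nuclei. Input lists come from nuclei of the dissected tissue labelled Input, with 1 list for heart and 1 for trunk. Both organs share age, tamoxifen dose and protocol. Nothing in the labels says that replicates came from separate litters or embryos, so p-values measure only the spread between these samples, which may be technical.

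The embryonic heart holds endocardium, the inner lining that also gives rise to the valve cushions, and the first coronary vessels. GATA and HAND transcription factors act in endocardium and myocardium alike. The trunk holds the large axial vessels and the capillary and venous plexus of the body wall and viscera, where Hox genes record position along the body axis. An open region can be a promoter or an enhancer, and the nearest gene is only the closest annotated start site, not a shown target.

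Promoters of 6 genes are printed because the presence of a peak over them separated the organs. Of 21045 promoter windows of the RefSeq table (GRCm38.p6, the same assembly as mm10), 24 windows (0.114%) held a top peak in 4 of 4 heart and 0 of 4 trunk lists, and 30 windows (0.143%) the reverse. Without heart 3, a library that stood apart, the windows numbered 95 (0.451%) and 58 (0.276%), so the larger class changed. Of the 6 printed, Gata5 and Hand2 belong to gene lists used here, and the other 4 were picked after their values were seen. Each sequence is the 250 bases before the most upstream start in that table, written along the gene's own strand. Capitals mark exact matches, on either strand, to any of 13 searched letter strings, and adjoining matches run together.
Gata5 promoter, chr2:180334680-180334929, reverse strand: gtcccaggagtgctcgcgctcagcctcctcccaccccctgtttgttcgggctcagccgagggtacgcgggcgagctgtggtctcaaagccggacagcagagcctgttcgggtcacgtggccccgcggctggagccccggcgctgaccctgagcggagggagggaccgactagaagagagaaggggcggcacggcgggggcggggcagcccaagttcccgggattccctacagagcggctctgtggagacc
Hand2 promoter, chr8:57320733-57320982, forward strand: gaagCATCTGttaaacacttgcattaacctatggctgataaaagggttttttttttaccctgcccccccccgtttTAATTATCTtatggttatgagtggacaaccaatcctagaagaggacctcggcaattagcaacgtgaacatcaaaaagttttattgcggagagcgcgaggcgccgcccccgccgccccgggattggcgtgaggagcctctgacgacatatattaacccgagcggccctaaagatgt
Ptpn21 promoter, chr12:98737406-98737655, reverse strand: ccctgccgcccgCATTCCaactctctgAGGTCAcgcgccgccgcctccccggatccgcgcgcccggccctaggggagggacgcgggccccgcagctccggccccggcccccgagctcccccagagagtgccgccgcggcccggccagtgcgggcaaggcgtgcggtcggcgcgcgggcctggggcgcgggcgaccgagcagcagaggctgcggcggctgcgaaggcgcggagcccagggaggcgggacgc
Ppp1r16b promoter, chr2:158666483-158666732, forward strand: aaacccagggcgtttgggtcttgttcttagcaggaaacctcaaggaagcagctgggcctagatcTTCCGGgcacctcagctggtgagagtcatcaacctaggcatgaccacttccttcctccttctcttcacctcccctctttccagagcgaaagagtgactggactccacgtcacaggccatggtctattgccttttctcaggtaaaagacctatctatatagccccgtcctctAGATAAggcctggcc
Rassf2 promoter, chr2:132030325-132030574, reverse strand: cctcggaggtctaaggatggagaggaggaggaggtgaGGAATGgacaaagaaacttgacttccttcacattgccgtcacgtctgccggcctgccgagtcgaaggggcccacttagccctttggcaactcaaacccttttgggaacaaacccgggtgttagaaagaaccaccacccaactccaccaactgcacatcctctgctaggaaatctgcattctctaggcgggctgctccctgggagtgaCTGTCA
Casp8 promoter, chr1:58802252-58802501, forward strand: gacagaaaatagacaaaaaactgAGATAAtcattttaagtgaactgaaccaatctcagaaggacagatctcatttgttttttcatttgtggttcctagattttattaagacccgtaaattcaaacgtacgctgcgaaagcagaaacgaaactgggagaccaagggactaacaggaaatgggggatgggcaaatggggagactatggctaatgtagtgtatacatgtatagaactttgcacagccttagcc

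In the Hand2 promoter the capitals are CATCTG (the E-box string CAGATG on the other strand) and the overlapping TAATTA (homeobox string) and TTATCT (the GATA string AGATAA on the other strand). Ptpn21 held CATTCC (the TEAD string GGAATG on the other strand) and AGGTCA (nuclear receptor string). Ppp1r16b held TTCCGG (the ETS string CCGGAA on the other strand) and AGATAA. Rassf2 held GGAATG and CTGTCA (the MEIS string TGACAG on the other strand), and Casp8 held AGATAA. The Gata5 stretch held none of the 13 strings. The string AGATAA was in 9.68% of all promoter windows and CCGGAA in 18.9%. CCGGAA was in 32.7% of the 9490 windows open in all 8 lists, in 1 of the 24 heart windows and in 1 of the 30 trunk windows. A match is a description of letters, not a binding site.

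The library labelled heart 3 stood apart from the other heart libraries and decides many of the counts below. It kept 10.1 M reads after duplicates were set aside, of 61.3 M, and 83% of its reads were redundant, against 32 to 38% in the other heart libraries. Those kept 25.0 to 33.9 M reads, and the trunk libraries 23.9 to 59.1 M. Its list held 39096 peaks, against 101219 to 120456 in the other heart lists and 69606 to 107071 in the trunk lists. Matching the number of peaks therefore used 99.6% of its list, down to a -log10 q of 1.01, whereas the weakest peak kept in the other 7 lists was at 4.35 to 11.1. Its top peaks had a median width of 385 bp, against 701 to 711 bp in heart 1, 2 and 4. Of the 38150 regions it held, 8832 (23.2%) were in none of the other 7 lists. Those regions had a median width of 306 bp, and 97.5% had no top peak in either input. In the full input lists 12.1% had a heart input peak and 8.96% a trunk input peak. The main counts and tests are given with and without it, and values for 1 gene or region are for all 8 lists unless said otherwise.

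A second property of the files runs along the organs. The read files named in the headers of all heart lists carry one processing suffix (smd), whereas the trunk lists carry another (filter, sorted, md), so organ and read processing cannot be told apart. Postnatal heart lists and the heart input share the heart suffix. Kidney and liver lists and the trunk input share the trunk suffix. The E12 brain lists carry another suffix (fil, s, md), which 2 adult brain lists and 1 P6 brain list share. Trunk read files are numbered differently from the sample titles, and list numbers here are those of the titles.

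All 8 lists had peaks at most general endothelial genes. Of 18 general endothelial genes, among them Pecam1, Cdh5, Kdr and Erg, 17 or 18 had at least 1 top peak within the gene and 10 kb on either side in each endothelial list. The heart input had peaks at 14 and the trunk input at 11. The summed number of peaks at these genes was 75 to 90 in the heart lists, 85 in every trunk list, 33 in the heart input and 22 in the trunk input. Both endothelial groups were thus far above both inputs. The heart and trunk ranges of the sums overlapped through heart 3 alone, at 90 peaks. Heart 1, 2 and 4 had 78, 75 and 76, so without heart 3 every heart list lay below every trunk list.

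Cardiomyocyte genes gave a different picture. Of 20 such genes, which encode sarcomere, calcium-handling and other muscle proteins, 20 had a peak in the heart input, with a summed 63 peaks. Heart lists 1 to 4 had peaks at 18, 18, 10 and 13 of them, with sums of 37, 40, 24 and 33. Trunk lists 1 to 4 had peaks at 14, 16, 16 and 16, with sums of 29, 33, 33 and 30. The heart endothelial lists lay below the heart input and overlapped the trunk lists, with the lowest sum in heart 3. Without heart 3 the sums were 33 to 40 in heart and 29 to 33 in trunk, and met only at 33. In the number of genes with a peak, heart 4, at 13, was still below every trunk list. With all 8 lists no cardiomyocyte gene had its lowest heart list above its highest trunk list, and without heart 3 there were 4 of 20, Tnnt2, Myh7, Actc1 and Ryr2, against 5.01% of all genes. Myh6, the alpha myosin heavy chain gene, was higher in trunk, at 1 peak in every trunk list and 0 in every heart list, an order that turned round with 50 kb windows. The part of cardiomyocyte nuclei in the results was not tested.

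Lists of the same organ resembled each other more than lists of different organs. For the Jaccard index, the overlapping peaks of a pair of lists were merged, and the regions touched by both lists divided by all regions. An overlap of 1 base is enough. The index was 0.732 ± 0.0118 (SD, 6 pairs) within trunk, 0.585 ± 0.138 (6 pairs) within heart and 0.497 ± 0.0188 (16 pairs) between organs. The mean within organs exceeded the mean between them by 0.162 (exact 1-sided permutation test over 35 splits, p = 0.0286, the smallest it can give, Benjamini-Hochberg adjusted over 6 tests 0.0429). Without heart 3 the heart pairs rose to a mean of 0.707 and the difference to 0.219 (exact permutation p = 0.0286, adjusted 0.0571).

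Heart 3 did not share this pattern. Its mean Jaccard index was 0.462 with the other heart lists and 0.474 with the trunk lists. Of the 5436 regions held by heart 1, 2 and 4 and no trunk list it held 28.0%, and of the 3941 regions held by all trunk lists and none of heart 1, 2 and 4 it held 35.3%. At Gata5 and Hand2 it had 4 and 3 peaks, as many as the highest of the other heart lists.

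**Figure D1:**
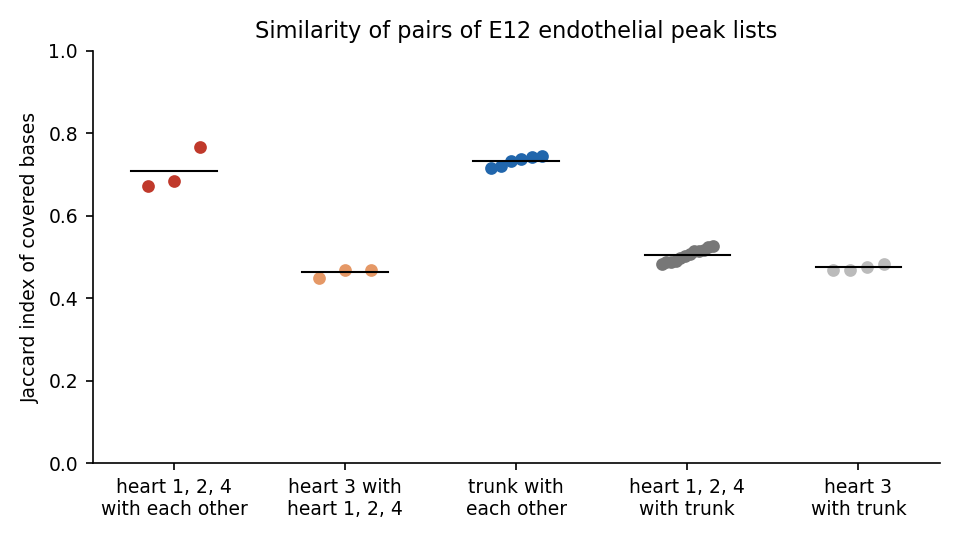
Jaccard index of shared regions (y axis, labelled covered bases, 0 to 1) for pairs of E12 endothelial lists, grouped by organ and with heart 3 apart. Points are pairs and lines are means. Heart 3 sits at a mean of 0.462 with its own organ, below the 0.707 of the other heart pairs and close to its 0.474 with trunk.

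Overlapping top peaks of the 8 lists merged into 74115 regions. Of these, 18463 (24.9%) held a peak in all 8 lists, and 51.9% of those lay within 500 bp of a gene start. A heart-restricted region is defined as one with a top peak in 4 of 4 heart and 0 of 4 trunk lists, and there were 1524 (2.06%). Trunk-restricted regions, the reverse, numbered 2550 (3.44%). Without heart 3 there were 5436 heart-restricted (8.33%) and 3941 trunk-restricted (6.04%) regions of 65284, so the order of the classes turned over with that library. No region passed Benjamini-Hochberg adjustment of the exact permutation test over all regions (smallest adjusted p = 0.520). The 4074 (5.5%) with an unadjusted p under 0.05 are the heart-restricted and trunk-restricted regions themselves, which the rule fixes. The exact test cannot go below 0.0286 with 4 lists against 4, so the counts describe these lists.

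**Figure D2:**
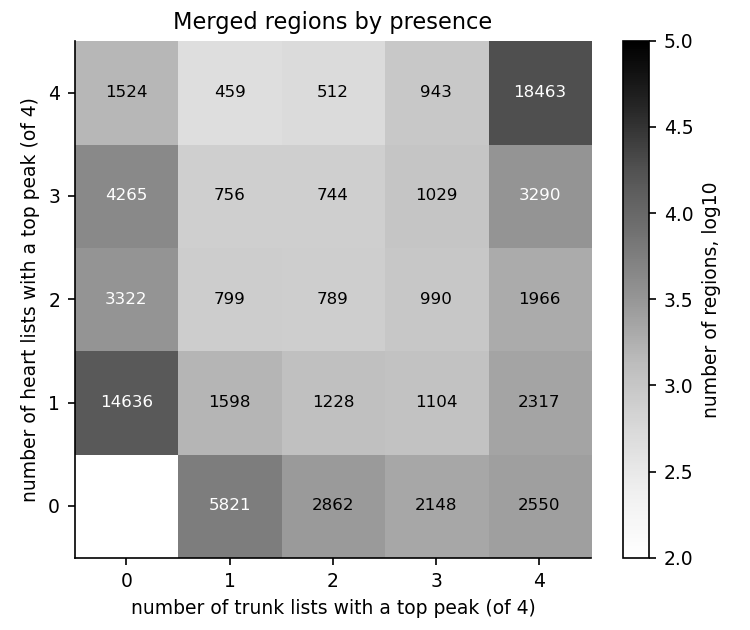
Number of merged regions by how many of the 4 trunk lists (x axis) and of the 4 heart lists (y axis) held a top peak; shading is the number on a log10 scale. The corner of 18463 regions is shared by all 8 lists, with 1524 heart-restricted and 2550 trunk-restricted regions in the opposite corners.

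Restricted regions were mostly not promoters with all 8 lists. Only 3.02% of the heart-restricted and 1.06% of the trunk-restricted regions lay within 500 bp of a gene start, and their median distance to one was 42.9 kb and 45.0 kb, against 0.6 kb for the regions shared by all 8. Without heart 3 the promoter shares were 2.13% and 1.78% and the distances 45.3 kb and 41.7 kb. Over all merged regions of the 8 lists the promoter share was 17.0% and the median distance 26.9 kb. With all 8 lists, 49.4% and 49.1% of the restricted regions were not at a promoter and had their centre inside a gene. The share over all merged regions was 38.8%. The share of top peaks at promoters was 28.5% ± 0.95 in heart and 28.1% ± 0.422 in trunk (SD, n = 4 each, exact permutation p = 0.429). With heart 3 left out the heart share was 28.5% ± 1.16 (n = 3, exact permutation p = 0.543). The median width was 626 ± 160 bp in heart and 629 ± 69.1 bp in trunk (SD, n = 4 each, exact permutation p = 1). With heart 3 left out the heart width was 706 ± 5.03 bp, 76.5 bp above trunk (n = 3, exact permutation p = 0.143).

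Restriction is a matter of rank for many regions. In the full lists, which reach weaker peaks, 417 of the heart-restricted regions (27.4%) had no peak in any trunk list and 456 (29.9%) had one in all 4. Of the trunk-restricted regions, 460 (18.0%) had no peak in any full heart list, and 1322 (51.8%) had one in 3 of them. Leaving out heart 3 turned the order of the heart shares round: 42.0% of the 5436 heart-restricted regions had no peak in any full trunk list and 18.2% had one in all 4. Of the 3941 trunk-restricted regions, 13.7% had no peak in the full lists of heart 1, 2 and 4 and 59.98% had one in all 3. Heart 3 adds almost nothing in that check, since nearly all of its list was already in use.

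The heart input held many of the heart-restricted regions. Of the 1524, 687 had a top peak in the heart input, or 45.1% (95% Wilson interval 42.6 to 47.6%), and 223 in the trunk input, or 14.6% (12.9 to 16.5%). Of the 2550 trunk-restricted regions, 326 had a top peak in the trunk input, or 12.8% (11.5 to 14.1%), and 194 in the heart input, or 7.61% (6.64 to 8.70%). Over all merged regions the shares were 35.4% and 33.9%. Intervals cover counting error only, and each organ has 1 input, so there is no test. With all 8 lists the heart-restricted regions were above the share of all regions in their own input, and trunk-restricted regions below it. Heart-restricted regions were also wider, with a median of 852.5 bp against 623 bp for trunk-restricted and 650 bp for all merged regions. Any overlap counted as a peak, and the part of width in these shares was not tested. Without heart 3 the own-input shares were 35.6% and 12.6%, both below the 40.1% and 38.3% over the 65284 regions of those 7 lists. In the full input lists 88.9% of the heart-restricted regions had a heart input peak and 29.8% of the trunk-restricted regions a trunk input peak, against 66.4% and 51.8% of all merged regions. The full heart input held 32.0% of the trunk-restricted regions, more than their own input, the reverse of the order seen with top peaks. The full heart input list is longer, at 144197 peaks against 98934 in trunk, and held more of all merged regions too. The part of list length in this reversal was not tested. No top peak in either input was found for 782 heart-restricted (51.3%) and 2129 trunk-restricted (83.5%) regions, against 57.1% of all merged regions. What nuclei other than endothelial ones contribute was not tested.

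The same order was seen per list. The Jaccard index with the heart input minus that with the trunk input was 0.0495, 0.0539, 0.0188 and 0.0660 in heart lists 1 to 4. In trunk lists 1 to 4 it was -0.00633, -0.0158, -0.0140 and 0.000779. The groups did not overlap, with means of 0.0471 ± 0.0201 and -0.00885 ± 0.00763 (SD, n = 4 each, exact 2-sided permutation p = 0.0286, adjusted 0.0429). Without heart 3 the heart mean was 0.0565 ± 0.00853 (n = 3, exact permutation p = 0.0286, adjusted 0.0571). The p-value rose to 0.0571 when any 1 of the trunk lists was left out.

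Endothelial lists of other organs and of the heart at other ages, which the regions were not defined on, held the 2 classes unequally. The 3 E12 brain endothelial lists held 69.9, 78.9 and 82.0% of the trunk-restricted regions and 3.81 to 5.71% of the heart-restricted ones. Without heart 3 the means over these lists were 80.1% and 3.65%. Brain lists of P6 held 20.2 to 35.1% of the trunk-restricted and 13.6 to 21.7% of the heart-restricted regions. The 2 P6 heart lists held 55.1 and 60.9% of the heart-restricted and 33.4 to 35.3% of the trunk-restricted regions. That lean rested on heart 3: without it the same lists held 37.1 and 40.3% of the heart-restricted and 40.7 to 42.9% of the trunk-restricted regions. Adult heart lists held 22.4 and 24.7% of the heart-restricted and 17.3 to 20.0% of the trunk-restricted regions, and without heart 3 13.4 and 14.0% against 23.3 to 26.9%. P6 kidney lists leaned to trunk, with 38.8 and 43.8% of the trunk-restricted against 18.7 and 19.9% of the heart-restricted regions. P6 liver lists held 30.4 and 32.5% of the heart-restricted and 26.5 to 28.2% of the trunk-restricted regions, and without heart 3 19.5 and 21.8% against 32.2 to 34.2%. With all 8 lists, the adult liver lists held 29.8 and 32.3% of the heart-restricted and 19.1 to 21.1% of the trunk-restricted regions, and the adult brain lists 24.8 and 25.0% against 15.6 to 17.8%. These leans turned round too when heart 3 was left out, to 19.5 and 21.2% against 23.8 to 25.96% in liver and 16.7 and 17.0% against 18.6 to 20.7% in brain. Of these 29 lists 9 were shorter than 38942 peaks, the shortest at 19437, including both adult heart lists.

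The brain resemblance also held list by list. The mean Jaccard index with the 3 E12 brain lists was 0.644, 0.650, 0.670 and 0.683 in trunk lists 1 to 4 and 0.479, 0.484, 0.436 and 0.445 in heart lists 1 to 4. Every trunk list lay above every heart list, and this comparison was added after the values were seen, so no test is given.

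Per postnatal or adult list, the percent of heart-restricted minus the percent of trunk-restricted regions was 14.2 ± 11.4 points in 4 heart lists and -4.64 ± 10.52 in 22 lists of other organs (SD). By age the heart mean was 23.6 points at P6 and 4.87 in adults, below the 10.95 of adult liver and the 8.22 of adult brain. The difference of 18.9 points had an exact permutation p of 0.00314 (14950 splits, adjusted 0.0189, with lists of 1 organ not independent organs). Without heart 3 the means were -7.26 ± 5.56 and -15.7 ± 10.6, so the sign of the heart-list value turned round, and the difference was 8.44 points (exact permutation p = 0.141). Without heart 3 and with longer lists it was 12.2 points (exact permutation p = 0.0276), so this result depends on the number of peaks. The Jaccard index with postnatal and adult heart lists minus that with other organs was 0.0480, 0.0451, 0.0408 and 0.0497 in heart lists 1 to 4 and 0.0311, 0.0204, 0.0203 and 0.0270 in trunk lists 1 to 4. The groups did not overlap (difference 0.0212, exact permutation p = 0.0286, adjusted 0.0429, and adjusted 0.0571 without heart 3). With 20000 peaks the difference was 0.00563 (exact permutation p = 0.229), and with 50% overlap 0.0136 (exact permutation p = 0.0857).

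**Figure D3:**
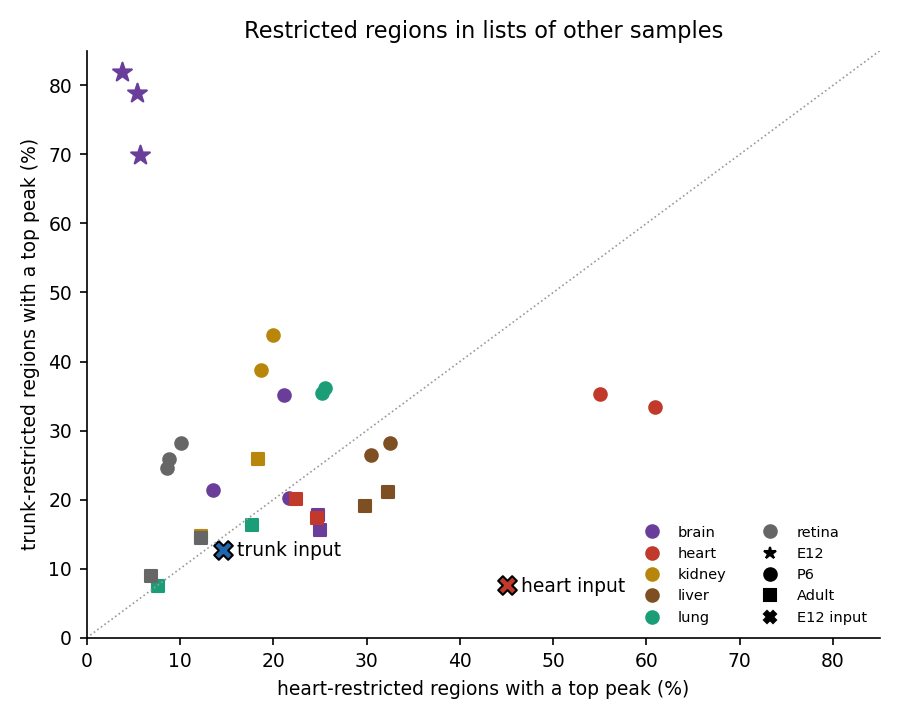
Percent of the 1524 heart-restricted (x axis) and of the 2550 trunk-restricted regions (y axis) with a top peak in each endothelial list of other samples and in the 2 E12 inputs; the dotted line marks equal shares and regions are those of all 8 lists. The E12 brain lists lie at 69.9 to 82.0% of trunk-restricted regions and the P6 heart lists at 55.1 to 60.9% of heart-restricted regions.

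The inputs and the postnatal hearts overlapped in what they held. Of the 687 heart-restricted regions with a heart input peak, 60.4 and 66.1% were in the P6 heart lists, and of the 837 without one, 50.7 and 56.6%. Without heart 3 these were 43.8 and 48.2% of 1937 regions with a heart input peak and 33.4 and 35.98% of 3499 without one.

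At the gene level, top peaks were counted in each of 21631 protein-coding genes and 10 kb on either side. The lowest heart list was above the highest trunk list for 419 genes (1.94%), and the reverse was true for 570 (2.64%). Without heart 3 these were 1084 (5.01%) and 930 (4.3%). All 419 and 570 genes were among them, which the rule fixes, since leaving out a list at the same number of peaks cannot end a separation. The same holds for each gene called below with and without heart 3. No gene passed adjustment over all genes (exact permutation test, smallest adjusted p = 0.625). The 989 (4.57%) with an unadjusted p under 0.05 are the same 419 and 570 genes. A heart-restricted region lay within the gene or 10 kb of it for 958 genes (4.43%) and a trunk-restricted one for 1454 (6.72%). Below, a gene is called higher where its groups do not overlap in this way, which is a description. The 16 genes followed through the alternatives were Gata5, Hand2, Irx5, Nrg1, Kcnq1, Nfib, Cdh5, Stab2, Mrc1, Tgfb1, Myh6 and 5 Hox genes. All 16 lost the separation in the full lists, where the list of heart 3 is much shorter than the rest. A short list can only lower a heart count. The genes higher in trunk (Cdh5, Stab2, Myh6 and the Hox genes) lost it through the other heart lists. Stab2, for example, had 8, 10, 3 and 16 in heart and 12, 10, 18 and 16 in trunk. With 20000 peaks 3 of the 16 were still separated, with ranking by fold 4, with 50 kb windows 7, and without heart 3 and with longer lists 7. The calls thus depend on the number of peaks and on the ranking.

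Gata5 and Hand2 led the heart transcription factors. Gata5, a GATA factor of endocardium, had 3, 3, 4 and 4 peaks in heart lists 1 to 4 and 0 in every trunk list. The heart input had 3 and the trunk input 0. Ranked by fold, Gata5 had 1, 1, 4 and 0 peaks in heart and 0 in every trunk list, and with 20000 peaks 0, 0, 1 and 1 against 0. In the full lists Gata5 had 5, 6, 4 and 5 peaks in heart and 2, 2, 3 and 4 in trunk. Hand2, a basic helix-loop-helix factor of heart and limb, had 2, 2, 3 and 3 in heart and 1 in every trunk list, with 2 in the heart input and 1 in the trunk input. In the full lists Hand2 had 7, 6, 3 and 6 in heart and 6, 4, 6 and 6 in trunk, with equal means. Ranked by fold, Hand2 had 3 peaks in heart 3, 0 in the other heart lists and 1, 1, 0 and 0 in trunk, and with 20000 peaks the means were equal. Irx5, an Iroquois factor, had 2 in every heart and 1 in every trunk list, an order that turned round when peaks were ranked by fold. Of 16 cardiac transcription factor genes these 3 were higher in heart and 0 in trunk, with and without heart 3, against 1.94% and 5.01% of all genes higher in heart.

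At Gata5, 3 heart-restricted regions lay within 10 kb of the gene. The one over the promoter printed above spanned chr2:180333807-180335092 (mm10). It ranked 25770, 23603, 4451 and 8429 in heart lists 1 to 4, with the authors' fold enrichment at 3.32, 3.28, 6.00 and 4.42. In the full trunk lists a peak was also present there, at ranks 74701, 51217, 40911 and 77561 and folds of 2.59, 2.81, 4.09 and 2.71. The promoter was therefore listed in trunk as well, past the 38942 peaks kept, and its fold in trunk 3 was above those in heart 1 and 2. Ranks in full lists are positions in lists of different lengths. The other 2, chr2:180322620-180323651 and chr2:180342257-180342908, were each absent from 2 of the 4 full trunk lists. None of the 3 had a top peak in a P6 heart or E12 brain list.

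The Hand2 region, chr8:57320352-57322079, covered the promoter and ranked 16404, 19606, 25762 and 26643 in heart lists 1 to 4. In the full trunk lists it ranked 54001 to 82506. It had a peak in the heart input and in 2 of 2 P6 heart lists, and in 0 of 3 E12 brain lists. At Ptpn21, which encodes a tyrosine phosphatase, the promoter ranked 27580 to 35537 in the heart lists and 44631 to 54794 in the full trunk lists.

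Nrg1, the neuregulin ligand by which endocardium signals to myocardium, had 19, 19, 14 and 20 peaks in heart and 12, 9, 9 and 11 in trunk. The heart input had 14 and the trunk input 20, the reverse order. Without heart 3 and with longer lists Nrg1 had 32, 30 and 33 in heart and 19, 19, 22 and 19 in trunk. Of 17 endocardial genes, 3 were higher in heart and 0 in trunk, with and without heart 3, against the same 1.94% and 5.01% of all genes. These are Nrg1 and again Gata5 and Hand2, which both lists hold. The heart-restricted region chr8:32151416-32152421 inside Nrg1 was absent from all 4 full trunk lists and from both full input lists. Its ranks were 4786, 12933, 35404 and 10022 in heart lists 1 to 4, so heart 3 was the weakest. The other endocardial genes gave no such separation: Nfatc1, the factor of valve endocardium, had 9, 8, 10 and 8 peaks in heart against 11, 10, 9 and 11 in trunk.

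Among genes outside these lists, the nearest start to the most heart-restricted regions was that of Nfib and of Kcnq1, with 6 regions each. That order holds with heart 3 only. Without it Efnb2, a gene of the arterial list named after its value was seen, led with 14, and Sox4 and Gm44812 had 9, Nfib 8 and Kcnq1 7. Kcnq1, a potassium channel gene, had 14, 14, 13 and 12 peaks in heart and 5, 5, 9 and 7 in trunk. Without heart 3 and with longer lists Kcnq1 had 22, 22 and 19 in heart and 22, 21, 18 and 20 in trunk, and the groups overlapped. All 6 Kcnq1 regions lay inside the gene, and 1 of the 6 had a top peak in the heart input, while 5 had a peak in its full list. Nfib, a nuclear factor I gene, had 12, 13, 13 and 13 in heart and 10, 9, 10 and 10 in trunk, and 5 of its 6 regions had a top peak in the heart input and 6 a peak in its full list. Ranked by fold, Nfib had 6, 8, 13 and 6 in heart and 9, 8, 8 and 7 in trunk, so heart 3 alone lay above trunk. Without heart 3 and with longer lists Nfib had 20, 23 and 18 against 15, 19, 14 and 14, and the groups overlapped. Nfib was also the nearest gene of 3 trunk-restricted regions. Map3k7, Rasgef1b and Sox4 followed with 4 regions each, and Map3k7 also had 4 trunk-restricted regions. Near means the nearest start at any distance, and the heart-restricted regions of Map3k7 lay 387 to 559 kb from it. Fhit, Sertad4, Vav3, Tenm4, Gm44812, Nfatc2 and Zeb2 had 3 each, and are 7 of 27 genes with that number, taken by the rank of their regions. Of the 45 heart-restricted regions near these 12 genes, 23 had a top peak in the heart input and 44 a peak in its full list. Of the same 45, 29 were in both P6 heart lists and 44 in none of the E12 brain lists. This tally depends on which tied genes were taken. Over all 1524 heart-restricted regions the heart input held 45.1% and its full list 88.9%. Each P6 heart list held 55.1 or 60.9% of the 1524, and each E12 brain list 3.81 to 5.71%. The tally is therefore not read as a trait of these genes. Rasgef1b, although near 4 heart-restricted regions, had more peaks in trunk within its own window, at 3 in every trunk list against 2, 2, 1 and 2 in heart.

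The heart-restricted regions with the best weakest rank lay near Upb1, Cdh6, Ackr3, Rabgap1l, Fam110b and Tshr. Their distances to the start were 33.0, 22.7, 195, 99.7, 202 and 11.8 kb. Each had a top peak in the heart input and none in the trunk input or E12 brain, and 5 of the 6 were in both P6 heart lists. All but the one near Ackr3 had a weaker peak in the full trunk input list. Near Ackr3, a chemokine receptor gene, chr1:90398302-90399146 ranked 931, 625, 6348 and 545 in the heart lists and was absent from every full trunk list. Near Cdh6, a cadherin gene, chr15:13195938-13196742 ranked 2178, 2068, 5941 and 883 and was likewise absent from trunk.

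**Figure D4:**
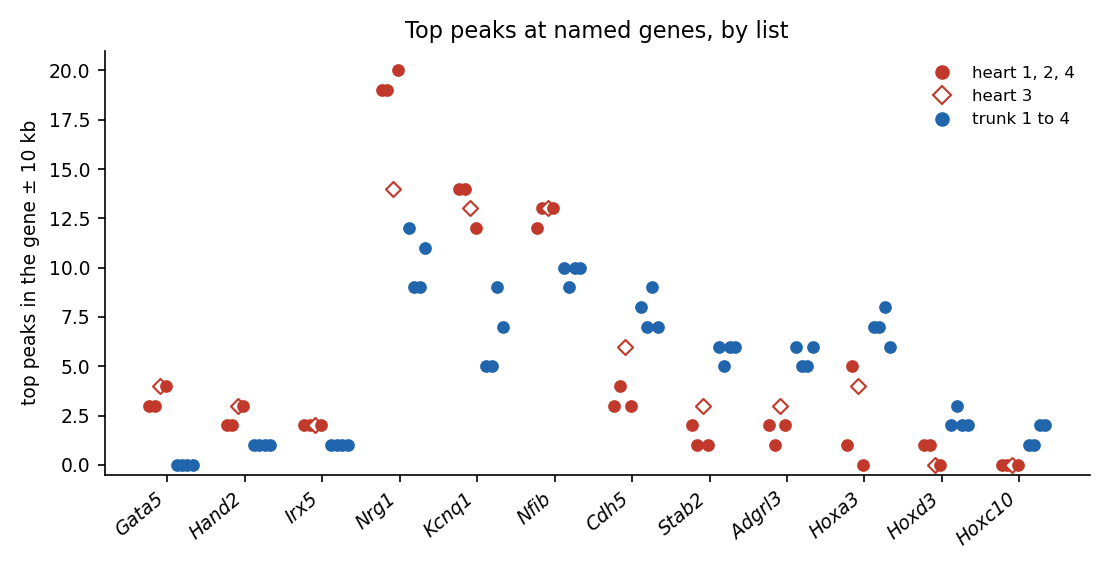
Number of top peaks within each gene and 10 kb on either side (y axis) in the 4 heart lists (red, heart 3 as an open diamond) and the 4 trunk lists (blue). Gata5 has 3 or 4 peaks in heart and 0 in trunk, and Hoxc10 has 0 in heart and 1 or 2 in trunk.

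On the trunk side, Cdh5, which encodes VE-cadherin of endothelial junctions, had 8, 7, 9 and 7 peaks against 3, 4, 6 and 3 in heart. Ranking by fold in place of q turned this round, to a mean 1.5 peaks more in heart, which came from 6 peaks in heart 3 with 0 in the other 7 lists. Cdh5 was the only 1 of 18 general endothelial genes higher in trunk, and 0 were higher in heart, against 2.64% and 1.94% of all genes. Without heart 3 there were 6 of 18 (Cdh5, Kdr, Tek, Sox18, Egfl7 and Cldn5), with Tie1 higher in heart, against 4.3% and 5.01% of all genes. At Cdh5, chr8:104117871-104118568 ranked 17494, 28065, 10886 and 20176 in the trunk lists and 91440 in the full list of heart 1, and was absent from the other 3 heart lists. It was in 3 of 3 E12 brain lists. The other region at Cdh5, chr8:104103421-104103875, ranked 51674, 53566 and 43245 in the full lists of heart 1, 2 and 4. Its folds overlapped, at 2.03, 2.20, 2.76 and 2.04 in trunk and 2.06, 1.97 and 2.18 in these heart lists. Of the 18 genes, 5 had a heart-restricted region within 10 kb or inside (Erg with 2, and Eng, Emcn, Flt1 and Tek with 1 each), against 4.43% of all genes. A trunk-restricted region was there for 4 (Cdh5 with 2, and Kdr, Tek and Cldn5 with 1 each), against 6.72% of all genes.

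Stab2, a scavenger receptor gene of sinusoidal endothelium, had 6, 5, 6 and 6 peaks in trunk and 2, 1, 3 and 1 in heart. The heart input had 6 and the trunk input 3. Its regions chr10:86920529-86921102 and chr10:86992361-86993128 were in 3 of 3 E12 brain lists and in neither input's top peaks. Mrc1, the mannose receptor gene on the same list of 8, had 2 in every heart and 1 in every trunk list. That order turned round without heart 3 and with longer lists. Of the 8 sinusoidal genes, 1 was higher in heart and 1 in trunk, against 1.94% and 2.64% of all genes. Without heart 3 there were 2 in heart (Mrc1 and Fcgr2b) and 1 in trunk (Stab2), against 5.01% and 4.3% of all genes.

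Other gene lists held few or no such genes. In BMP and TGF-beta signalling, 1 of 19 genes, the ligand gene Tgfb1, was higher in heart with 4, 4, 5 and 4 peaks against 3 in every trunk list, where 1.94% of all genes were higher in heart. Ranked by fold, Tgfb1 had 1, 1, 5 and 1 in heart and 2, 2, 1 and 1 in trunk, and with 20000 peaks 3 in every heart list and 3, 3, 2 and 3 in trunk, so the separation was lost. Without heart 3 there were 3 in heart (Tgfb1, Bmpr2 and Id1) and 1 in trunk (Tgfb2), against 5.01% and 4.3% of all genes. None of the 14 arterial, 8 lymphatic, 6 venous, 8 coronary, 7 epicardial or 10 cushion mesenchyme genes was higher in either organ with all 8 lists. Without heart 3, 1 lymphatic gene (Sox18) was higher in trunk and 1 cushion gene (Twist2) in heart, read against the same shares. Genes that mark other cells were also counted. With all 8 lists, none of 10 skeletal muscle, 10 cartilage, 10 neural, 8 hepatoblast or 8 erythroid genes was higher in either organ. Leaving out heart 3 made 1 neural gene (Tubb3) and 1 hepatoblast gene (Foxa3) higher in heart, against the same shares.

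The nearest genes of trunk-restricted regions were led by Prkce with 6 regions, a protein kinase C gene that was also near 3 heart-restricted regions. Adgrl3, Tmsb4x, Cdh2, Fam155a, Tenm3, Pik3r1, Jarid2, Zfp36l1, Plk2, Ptn and Tiam1 had 5 each. Some of these regions lay far from the start, up to 1225 kb for Adgrl3 and 1227 kb for Tenm3. Adgrl3, an adhesion receptor gene, had 6, 5, 5 and 6 peaks in trunk and 2, 1, 3 and 2 in heart. Of the 61 regions near these 12 genes, 47 were in 3 of 3 E12 brain lists and 16 in both P6 heart lists. Of the 61, 6 had a top peak in the trunk input and 1 in the heart input, and in the full input lists 20 and 17 had one. Over all 2550 trunk-restricted regions, each E12 brain list held 69.9 to 82.0% and each P6 heart list 33.4 to 35.3%. The trunk and heart inputs held 12.8% and 7.61% of the 2550, and their full lists 29.8% and 32.0%. These tallies too are not read as traits of the named genes. The best ranked trunk-restricted regions lay near Ctnnd2, Dkk2, Auts2, Plpp1, Marchf1 and Itga9, all in 3 of 3 E12 brain lists. Their distances to the start were 735, 79.0, 371, 65.5, 229 and 56.5 kb. Near Ctnnd2, chr15:29437635-29438265 ranked 1403, 1021, 1352 and 456 in trunk and 88779, 59804 and 46543 in the full lists of heart 1, 2 and 4.

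The trunk promoters printed above differed in how absolute the separation was. Casp8, an initiator caspase gene, ranked 9692, 17521, 20448 and 11558 in the trunk lists and had no peak in any full heart list. The promoter of Rassf2 ranked 16339 to 30507 in trunk and 44188, 45096 and 52838 in the full lists of heart 1, 2 and 4. Its folds overlapped, at 3.18, 3.545, 3.48 and 3.18 in trunk and 3.44, 3.33 and 3.44 in these heart lists. The promoter of Ppp1r16b, which encodes an endothelial regulator of protein phosphatase, ranked 21746 to 38061 in trunk and 52635, 53769 and 62554 in the same heart lists. Its folds were 2.73, 2.60, 3.86 and 2.82 in trunk and 3.04, 2.75 and 2.99 in these heart lists, and overlapped too. All 3 promoters were in 3 of 3 E12 brain lists.

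Most Hox genes did not separate the organs, and those that did had more top peaks in trunk. Of 39 Hox genes, 5 were higher in trunk and 0 in heart, with and without heart 3: Hoxa2, Hoxa3, Hoxd3, Hoxc10 and Hoxc11. Over all genes 2.64% were higher in trunk, and 4.3% without heart 3, and all 5 Hox genes lost the separation in the full lists. Windows of neighbouring Hox genes overlap, so Hoxc10 and Hoxc11 share peaks. Hoxa3 had 7, 7, 8 and 6 peaks in trunk and 1, 5, 4 and 0 in heart. Hoxc10, a gene of the posterior end of its cluster, had 1, 1, 2 and 2 in trunk and 0 in every heart list. Hoxd3 had 2, 3, 2 and 2 in trunk and 1, 1, 0 and 0 in heart, an order that turned round with 20000 peaks and with ranking by fold.

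Counting each peak once over the 4 clusters, the heart lists had 11, 14, 10 and 3 top peaks and the trunk lists 16, 22, 22 and 20. The groups did not overlap, and heart 4 was the lowest. In the full lists the counts were 58, 58, 10 and 42 in heart and 63, 52, 77 and 94 in trunk, where trunk 2 lay below heart 1 and 2. The inputs had 3 in heart and 20 in trunk, and the 3 E12 brain lists 12, 12 and 9. The Hoxc cluster, chr15:102921131-103036856, had 1 top peak in every heart list and 1, 2, 4 and 2 in trunk.

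**Figure D5:**
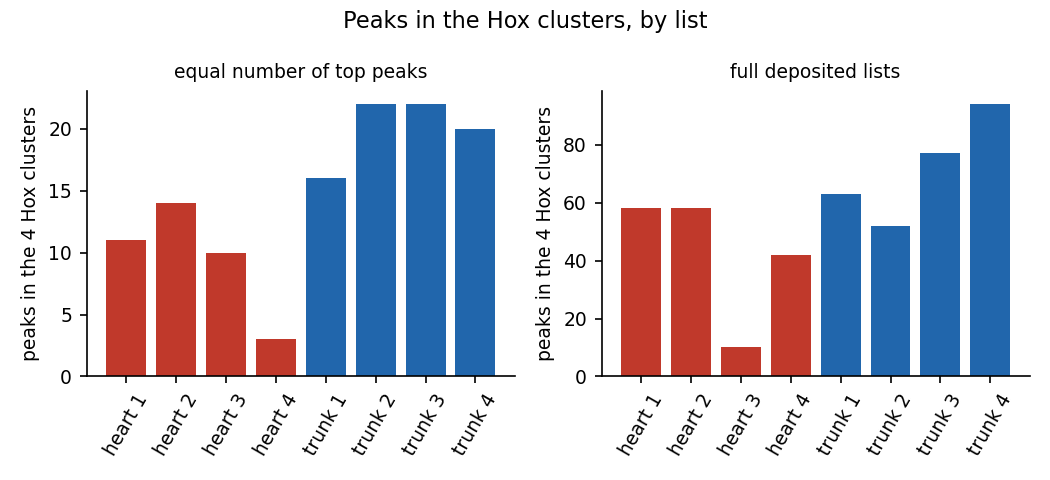
Peaks in the 4 Hox clusters (y axis) for each list, with an equal number of top peaks per list (left) and in the full deposited lists (right). With equal numbers heart has 3 to 14 and trunk 16 to 22, and in the full lists the groups overlap.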

How the data were processed

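ATAC-seq peak lists of 8 E12 endothelial libraries, 2 E12 inputs and 29 other endothelial libraries were used. Per the file headers, the authors called broad peaks in each library separately with MACS2 2.1.2 (shift -100, extension 200, q 0.05, broad cutoff 0.1), keeping 1 read per position, with no control library. Bowtie2, SAMtools 1.13, Picard and build mm10 are named in the submitters' processing notes. Each deposited peak carries the authors' mean pileup signal, fold enrichment as a ratio, and -log10 p and -log10 q, which rank peaks within a list only. Y and unplaced contigs were left out.

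Peaks were ranked by -log10 q (ties by fold), cut to 38942, and merged where they overlapped by 1 base or more. Gene starts came from the RefSeq promoter table for 17274 genes, and otherwise both gene ends were used. As a check of builds, 43.9 to 47.1% of start sites had a peak, against 3.43 to 4.76% after a 100 kb shift. Tests were exact permutations over lists with Benjamini-Hochberg adjustment (Python 3.11.15, SciPy 1.17.1), and the code was tested on simulated data.

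Named in each organ are the 12 genes nearest to most restricted regions (ties by the best weakest rank of a region), the 6 regions with the best weakest rank, and from each gene list up to 5 genes with most restricted regions. The text also names genes of the endothelial, endocardial, cardiac, cardiomyocyte and Hox lists, printed promoters, and genes of other lists that separated the groups. Libraries, lists and rules were chosen with earlier results of these data known. Alternatives were full lists, 20000 peaks, ranking by fold, 50% overlap, left-out libraries, other rules for restricted regions, 50 kb windows, covered bases and a replicate block.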

Additional observations from a re-analysis of the deposited data

Results flagged for a closer look

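Within a group of 4, a value was marked where its gap to the nearest of the others was above Dixon's critical value, which chance gives for about 1 in 20 groups. The library labelled heart 3 was marked for its redundant reads (83%, others 32 to 38%), the bases its top peaks cover (17.8 Mb, others 30.4 to 30.8 Mb), the share of its list in use (99.6%, others 32.3 to 38.5%), its Jaccard index with the heart input (0.304, others 0.389 to 0.403) and its median peak width (385 bp, others 701 to 711 bp). Trunk 1 was marked for its mean Jaccard index with the heart lists, at 0.491 against 0.499 in each of the other 3.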

How the results depend on the processing

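Differences are heart minus trunk, except that the within-organ one is within minus between organs and the one for restricted regions in postnatal lists is heart minus other organs. The p-values come from exact permutation tests over lists. With the full deposited lists there were 615 heart-restricted and 3867 trunk-restricted regions, 102 and 255 genes higher in heart and trunk, input shares of 81.5% and 19.9%, an input similarity difference of 0.0688 (exact p = 0.114) and a median width difference of 3 bp. With 20000 peaks the counts were 656 and 1096 regions and 263 and 284 genes, the input shares 35.5% and 8.30%, the input similarity difference 0.0436 (exact p = 0.0571), the postnatal similarity difference 0.00563 (exact p = 0.229), the difference of restricted regions in postnatal lists 8.24 points (exact p = 0.146) and Hoxd3 0.25 peaks. Ranking by fold gave an input similarity difference of 0.0580 (exact p = 0.0571), a promoter share difference of -0.18 points, and Irx5 -0.5, Cdh5 1.5 and Hoxd3 0.25 peaks. Asking for 50% overlap gave 420 heart-restricted regions, a trunk input share of 11.3%, and input and postnatal similarity differences of 0.0514 and 0.0136 (exact p = 0.0857 each).

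Without heart 3 and with longer lists there were 9166 and 6462 regions, 1290 and 1179 genes, input shares of 39.3% and 17.4%, a width difference of 79.3 bp and Mrc1 at -0.92 peaks. Leaving out 1 library at a time gave 1618 to 5436 heart-restricted and 2750 to 3941 trunk-restricted regions, 459 to 1084 and 683 to 930 genes, and input shares of 35.6 to 46.4% and 12.02 to 16.1%. The within-organ similarity difference was then 0.135 to 0.219 (exact p = 0.0286 to 0.0571), the input one 0.0496 to 0.0653 (exact p = 0.0286 to 0.0571), the postnatal list difference 8.44 to 20.1 points (exact p = 0.00194 to 0.141) and the width difference -32.1 to 76.5 bp. Counting regions in at least 3 of 4 lists gave 5789 and 4698, and requiring no peak in the full lists of the other organ 417 and 460. Windows of 50 kb gave 664 and 901 genes and Myh6 at 0.25 peaks, and covered bases 971 genes in trunk. The full input lists, added after the data were seen, gave 88.9% and 29.8%. The cause of these changes was not tested.

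With the replicate block, an exact sign-flip over same-numbered lists that cannot go below 0.125, the input difference stayed at 0.0559 and the postnatal one at 0.0212 (exact p = 0.125 each). Correlations of the deviations of same-numbered lists were -0.041, -0.029, -0.030 and -0.009, and those of differently numbered lists -0.055 to 0.043. With every pair this close to no correlation, these values cannot show whether samples were paired. The numbers come from the titles, and the labels do not say. Heart 3 had the fewest reads kept, 10.1 M, and the others 23.9 to 59.1 M.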
